A study of Oryza sativa with 6 samples.

Results

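OsNYC1 and OsRCCR1 are rice genes for enzymes at the start and further along the route by which plants take chlorophyll apart. They are 2 of 17905 genes named by the array's gene annotation. Each had 1 probe set, a group of short probes read as 1 signal, among 57258 tested. The probe sets were taken by gene symbol or synonym from that annotation and the rice gene table. These genes were chosen with their difference between mutant and wild type already known from the same 6 arrays, so that difference is given below as a description, with no test.

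The mutant plants carried a T-DNA mutation in CHR729, a gene for a CHD-type chromatin remodelling protein, and the others were wild type of the cultivar Hwayoung. Both were whole seedlings 11 days old, grown on sucrose agar in a light and dark cycle, with 3 biological replicates per genotype and 1 Affymetrix Rice Genome Array per replicate. The labels do not give the cultivar of the mutant, the number of mutant lines or of pooled seedlings, and no gene in the annotation used here is listed as CHR729, so its transcript was not checked. Nothing in the labels says whether replicates were grown separately, so the spread between them may be partly technical.

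Chlorophyll a and chlorophyll b form the light-harvesting pigment of leaves, and both must be detoxified when leaves age or antenna complexes are rebuilt. OsNYC1 encodes a chlorophyll b reductase, which acts early by starting the return of chlorophyll b to the a form. Later a dioxygenase opens the ring of pheophorbide a, and red chlorophyll catabolite reductase, the product of OsRCCR1, reduces the opened red product to a colourless one. Rice plants that lack NYC1 stay green as their leaves age. Intermediates left before the last of these steps are phototoxic.

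In each mutant array both transcripts had less signal than in any wild-type array. OsNYC1 (LOC4327178) had signals of 984, 849 and 907 in the mutant, against 1373, 1230 and 1320 in wild type. The groups did not overlap, and the lowest wild-type signal was 1.25 times the highest mutant signal. Replicate 1 was highest and replicate 2 lowest in both genotypes.

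OsRCCR1 (LOC4348519) had signals of 650, 779 and 689 in the mutant, against 1509, 1189 and 1015 in wild type. These groups did not overlap either, and the lowest wild-type signal was 1.3 times the highest mutant one. Wild-type replicate 1 was well above the other two wild-type arrays, whereas mutant replicate 1 was the lowest mutant array. Mutant arrays lay wholly below wild-type arrays in 13.1% of all 57258 tested probe sets and in 18.8% of the 22436 that name 1 gene, so such separation was common. Because the genes were chosen on this contrast, nothing is read from their separation.

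OsNYC1 averaged 914 ± 67.5 in the mutant and 1308 ± 72.0 in wild type (signal, SD, n = 3 each), with a log2 difference of -0.50 (SE 0.09), mutant minus wild type. OsRCCR1 averaged 706 ± 66.3 in the mutant and 1238 ± 250 in wild type (SD, n = 3 each), with a log2 difference of -0.77 (SE 0.14). Log2 differences here and below are of log2(signal + 32), and the SE is that of a linear model fitted with limma to all tested probe sets. On this scale the mutant level was 0.71 of the wild-type level for OsNYC1 and 0.59 for OsRCCR1. Both probe sets lay above the median signal on all 6 arrays, so the added 32 changed these ratios little: the ratios of the mean signals were 0.70 and 0.57. Among all 57258 tested probe sets, 1547 had a more negative difference than OsNYC1, which put it at percentile 2.70. OsRCCR1 lay at percentile 0.99, with 569 more negative. Because the genes were chosen with this difference known, nothing is read from these ranks. In whole seedlings, less RNA per cell and fewer cells that hold the transcript cannot be told apart.

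**Figure D1:**
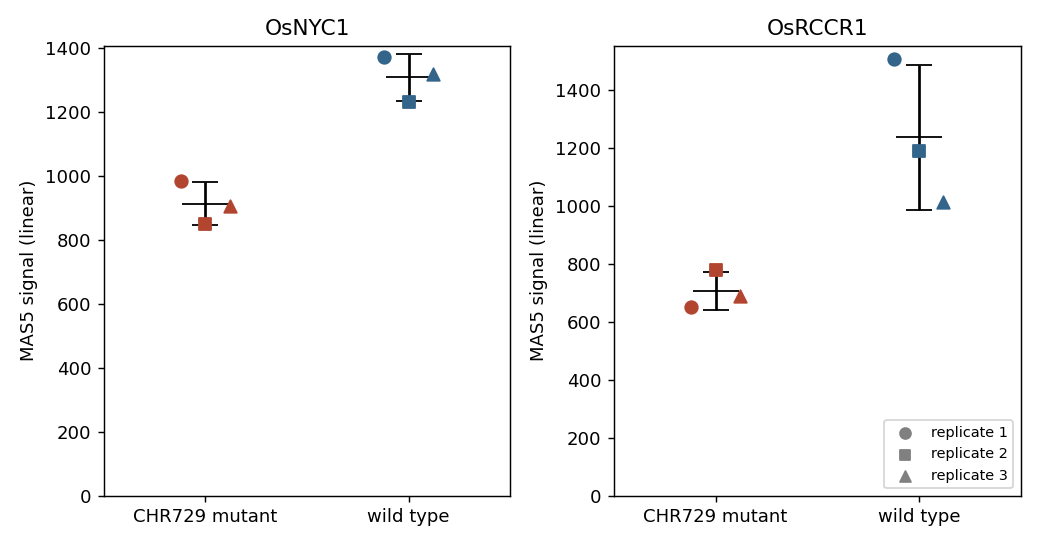
MAS5 signal (linear scale, from 0) of OsNYC1 and OsRCCR1 on each array, with CHR729 mutant arrays left and wild-type arrays right; bars are the mean ± SD of 3 arrays and marker shapes give the replicate number. The mutant points of OsNYC1 lie between 849 and 984, below the wild-type points, and the wild-type points of OsRCCR1 spread between 1015 and 1509.

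The replicates of the transcripts did not vary alike. For OsNYC1 the highest array had 1.16 times the signal of the lowest in the mutant and 1.12 times in wild type. For OsRCCR1 these ratios were 1.2 in the mutant and 1.49 in wild type. The SD of log2(signal + 32) for OsRCCR1 was 0.13 in the mutant and 0.28 in wild type, and for OsNYC1 it was 0.10 in the mutant and 0.08 in wild type. The size of the OsRCCR1 difference therefore rested more on which wild-type arrays were used. It was -0.62 when replicate 1 of wild type was left out and -0.90 when replicate 3 was.

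Genes with profiles like each transcript were sought among 2514 probe sets of named genes at or above the median mean signal. Likeness was the root mean square difference of log2(signal + 32), centred on each probe set's own mean, over the 6 arrays. All arrays share the same genotype split, so a small distance partly reflects a genotype difference of similar size, and it says nothing of shared function. OsSPX4, a gene of the phosphate-sensing SPX domain family, was nearest to OsNYC1 at 0.035. It had signals of 651, 580 and 638 in the mutant, against 983, 874 and 926 in wild type, again with replicate 1 highest and replicate 2 lowest in both genotypes. The bZIP factor gene OsbZIP63 followed at 0.045, then AC7 at 0.047, MHX1 at 0.050 and the shaggy-like kinase gene OsSK3 at 0.056.

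The nearest profiles to OsRCCR1 lay further off, at 0.089 for OsSTLP3, 0.094 for the MYB factor gene myb30, 0.096 for the protein phosphatase gene OsPP2C61, 0.099 for GLP2 and 0.11 for OsC3H2. myb30 had signals of 1331 to 1492 in the mutant, against 2088 to 2795 in wild type, and like OsRCCR1 it was brightest in wild-type replicate 1 and dimmest in wild-type replicate 3 within its group. OsC3H2 is OsDOS, which is described below with the senescence regulators. OsNYC1 and OsRCCR1 were 0.24 apart. By distance OsRCCR1 ranked 846 among the candidates from OsNYC1, and OsNYC1 ranked 125 from OsRCCR1.

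**Figure D2:**
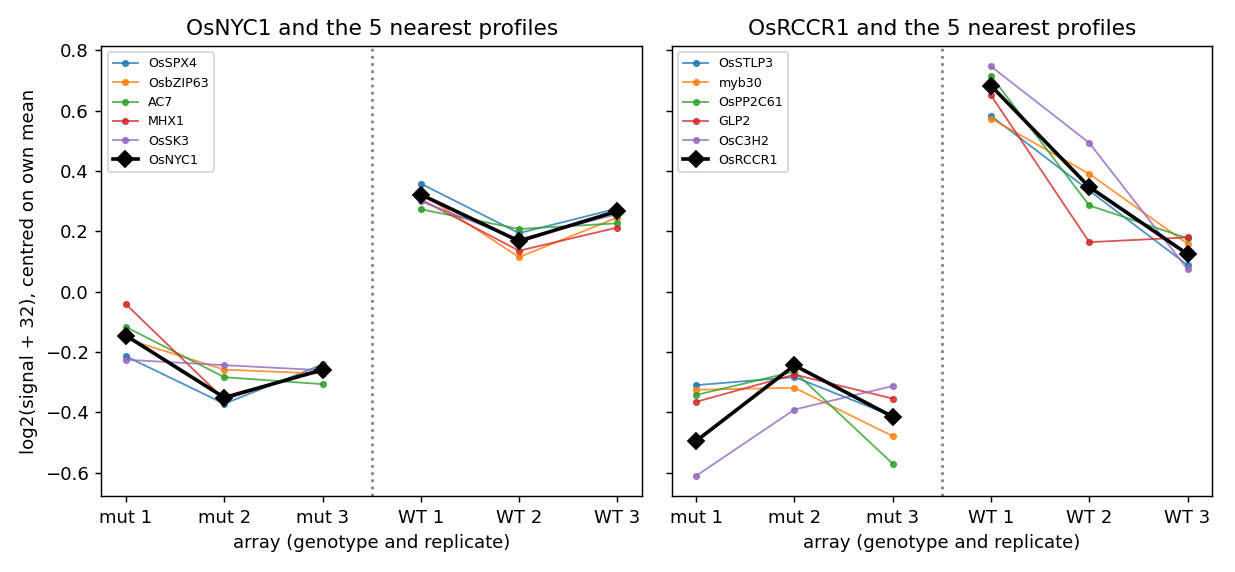
Log2(signal + 32), centred on each probe set's own mean, on the 3 mutant arrays (left of the dotted line) and the 3 wild-type arrays, for OsNYC1 (left panel) and OsRCCR1 (right panel) in black and the 5 nearest profiles in colour. OsNYC1 is highest in replicate 1 of each genotype, while OsRCCR1 is lowest in mutant replicate 1 and highest in wild-type replicate 1.

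Other breakdown genes named in the annotation were NOL, which encodes a second chlorophyll b reductase, partner of NYC1, and SGR, the stay-green gene whose product takes part in removing magnesium from chlorophyll. None of their 4 probe sets passed with limma at an adjusted p of 0.05 (Benjamini-Hochberg over all tested probe sets), where 9.91% of all probe sets and 18.1% of those naming 1 gene passed, and 1 of the 4 had an unadjusted p below that value. All 4, 2 for each gene, had differences below 0, as did 29425 of all 57258 probe sets. Their median was -0.22, beside a median of 0.00 over all probe sets. The groups overlapped for each of the 4, and the brighter SGR probe set reached 0.08 in the alternative settings. No shared fall of the breakdown genes is read from this.

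The brighter NOL probe set had signals of 760, 635 and 702 in the mutant, against 752, 760 and 870 in wild type, and the groups overlapped. Its log2 difference was -0.18 (SE 0.10, limma adjusted p = 0.369). The other NOL probe set had -0.27 (SE 0.11, limma adjusted p = 0.18), with mutant signals of 216 to 263 and wild-type signals of 256 to 327. The brighter SGR probe set, which carries the suffix for sequences that may match more than 1 transcript, had signals of 216, 139 and 91.2 in the mutant, against 219, 153 and 127.9 in wild type. Here arrays of 1 genotype differed more than the genotypes did, and the log2 difference was -0.17 (SE 0.23, limma adjusted p = 0.748). The dimmer SGR probe set had -0.26 (SE 0.22, limma adjusted p = 0.566). Replicate 1 was the highest and replicate 3 the lowest array in both genotypes for both SGR probe sets.

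Chlorophyll synthesis starts from glutamate, passes through 5-aminolevulinate and protoporphyrin, and enters its own branch when magnesium is inserted. The annotation named 19 genes of this route, of which 17 had a probe set, 19 probe sets in all. With limma, 1 of the 19 rose and none fell, where 9.96% of probe sets naming 1 gene rose and 8.16% fell. Unadjusted, 3 had a p under 0.05. The list median was -0.11 on the log2 scale, against -0.50 for OsNYC1 and -0.77 for OsRCCR1. Because OsNYC1 and OsRCCR1 were chosen with these differences known, nothing is read from their distance to the list median. The 18 that did not pass belong to 16 genes and have adjusted p between 0.121 and 0.944. The lowest end of their unadjusted 95% intervals was -0.59 (CAO) and the highest was 0.44 (a CHLH probe set). These ends come from separate intervals, so they are not a limit of resolution for the list. For each of the 18, a change within its own interval was not excluded. The intervals of that CHLH probe set (0.05 to 0.44) and of a GSA probe set (-0.35 to -0.01) did not include 0. Each is the dimmer probe set of its gene, with signals of 81.4 to 120 for CHLH and 29.5 to 46.5 for GSA. The GSA one lay below the array median on every array, and the CHLH one carries the suffix for sequences that may match more than 1 transcript. The brighter probe sets had differences of 0.05 for CHLH and -0.07 for GSA. The median over this list also varied by array. Relative to the wild-type mean of each probe set it was -0.01, -0.12 and -0.13 on the mutant arrays, against -0.04, 0.01 and 0.08 on the wild-type arrays, so these groups overlapped. OsNYC1 on the same scale was -0.40, -0.60 and -0.51 on the mutant arrays, against 0.07, -0.08 and 0.01 on the wild-type arrays. OsRCCR1 was -0.88, -0.63 and -0.80 on the mutant arrays, against 0.30, -0.04 and -0.26 on the wild-type arrays. Wild-type replicate 3 therefore had the lowest OsRCCR1 and the highest synthesis median of its group.

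In the early steps, GLUTR, the glutamyl-tRNA reductase gene of the committed step, had signals of 3293, 2700 and 2623 in the mutant, against 3109, 3778 and 2996 in wild type, and a log2 difference of -0.20 (SE 0.12, limma adjusted p = 0.381). GSA, the aminotransferase gene that completes 5-aminolevulinate, had -0.07 in a bright probe set and -0.18 in a dim one, and GBP, a symbol used for several unrelated proteins, had -0.14. Without GBP the list median was -0.09. Between 5-aminolevulinate and protoporphyrin, the dehydratase gene HEMB had -0.17 and the uroporphyrinogen synthase gene UROS had -0.19, whereas the decarboxylase genes URO-D1 and URO-D2 each had 0.11. The coproporphyrinogen oxidase gene CPX had -0.11 and the protoporphyrinogen oxidase gene PPOX1 had 0.03. None of these passed.

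In the magnesium branch, CHLI, which encodes a subunit of magnesium chelatase, rose. It had signals of 112, 111 and 98.6 in the mutant, against 69.2, 76.8 and 82.4 in wild type, close to the array medians, with a log2 difference of 0.37 (SE 0.08, limma adjusted p = 0.0206). The call was lost when 1 of 4 arrays was left out, with adjusted p = 0.0742 or 0.104 on dropping mutant replicate 1 or 2, and 0.06 or 0.0568 on dropping wild-type replicate 1 or 2. The other chelatase subunit genes did not pass, with -0.13 for CHLD and 0.05 and 0.25 for the 2 probe sets of CHLH. The protochlorophyllide oxidoreductase genes PORA and PORB had 0.02 and -0.13, and the PORB probe set carries the suffix for probes that may cross-hybridise. The chlorophyll synthase gene CHLG had 0.03, and CHLP, whose geranylgeranyl reductase makes the phytol tail, had -0.22 (SE 0.10, limma adjusted p = 0.231).

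CAO encodes chlorophyllide a oxygenase, which makes the b form and so runs opposite to the reductase of OsNYC1. Its signals were 1539, 1303 and 1275 in the mutant, against 2027, 1708 and 1317 in wild type. Wild-type replicate 3 lay among the mutant arrays, and the log2 difference of -0.27 (SE 0.15, limma adjusted p = 0.32) did not pass. Without that array the difference was -0.44 and passed (limma adjusted p = 0.0425). Among wild-type arrays CAO was brightest in replicate 1 and dimmest in replicate 3. OsRCCR1 and both SGR probe sets had the same order, so it was not particular to CAO. The annotation also lists this gene under Lls1, in maize the name of the gene for the oxygenase that opens pheophorbide a.

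Protoporphyrin also feeds heme and, from heme, the bilin pigment of phytochrome. HO1, the heme oxygenase gene also known as SE5, fell: its signals were 1201, 1189 and 1087 in the mutant, against 1832, 1429 and 1613 in wild type, and the log2 difference was -0.47 (SE 0.11, limma adjusted p = 0.0191). It missed the threshold without mutant replicate 2 (adjusted p = 0.0771) and without mutant replicate 3 (0.0846). HO2 had -0.04 (SE 0.10, limma adjusted p = 0.879), with overlapping groups.

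**Figure D3:**
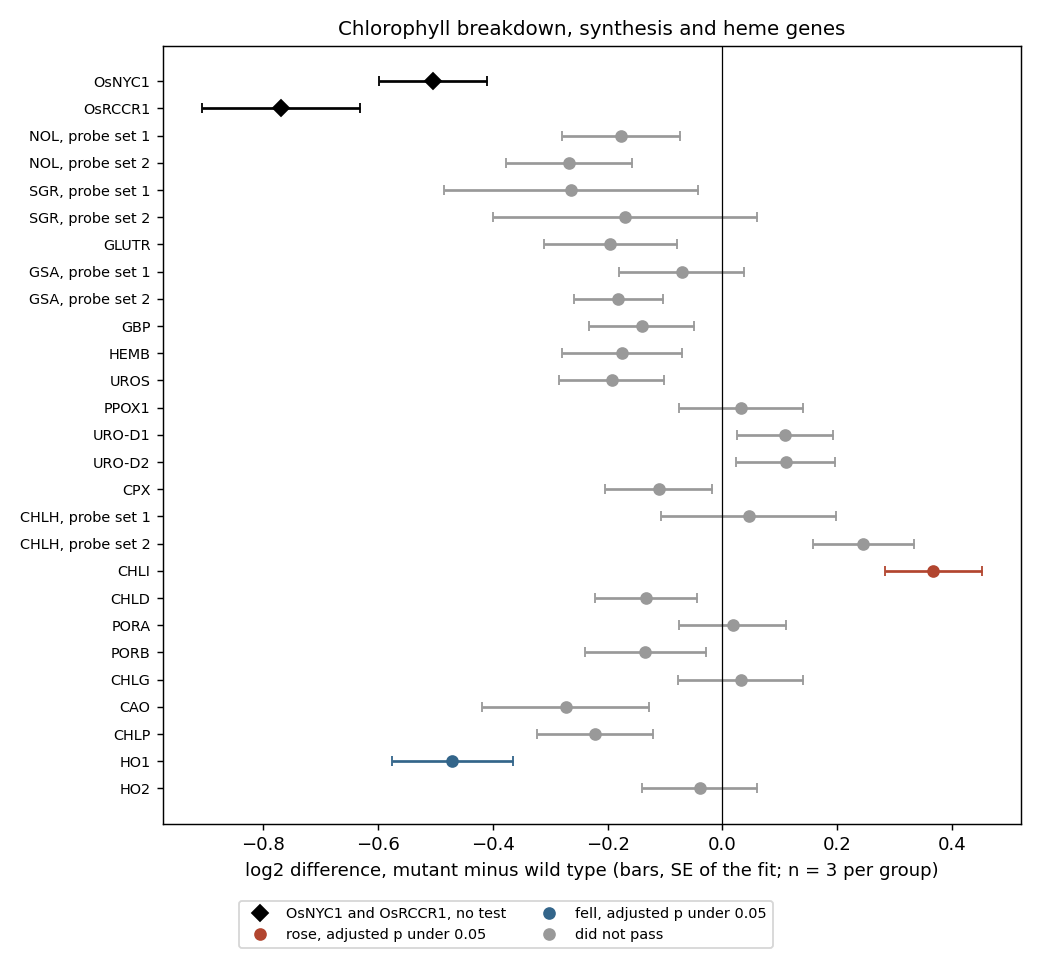
Log2 difference (mutant minus wild type, bars SE of the fit, n = 3 arrays per group) of OsNYC1 and OsRCCR1 (black diamonds, not tested) above the probe sets of other breakdown genes, of chlorophyll synthesis in pathway order and of the heme branch; red passed as higher, blue passed as lower, grey did not pass. Among the synthesis probe sets CHLI at 0.37 is red, and HO1 at -0.47 is blue.

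The antenna proteins that bind chlorophyll b were set beside OsNYC1 because its product acts on their pigment. None of 4 probe sets of CAB2R, RCABP89 and RCABP69 passed with limma, where 18.1% of probe sets naming 1 gene passed. None had an unadjusted p under 0.05, and their log2 differences lay between -0.04 and 0.05. The summed antenna signal was 37711 to 41657 on the mutant arrays and 38520 to 42572 on the wild-type arrays. These are among the bright signals: a CAB2R probe set reached 12077 on mutant replicate 2, where the highest signal was 17820. It was not tested whether signals this bright still follow RNA amount, so equal antenna RNA is not read from these values.

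Of 9 probe sets for regulators of greening and light signalling, 2 fell and 1 rose, where 8.16% of probe sets naming 1 gene fell and 9.96% rose. GLK1, which encodes a factor that promotes chloroplast development and chlorophyll synthesis genes, had signals of 1696, 1682 and 1789 in the mutant, against 2444, 2314 and 2169 in wild type. The groups did not overlap, and the log2 difference was -0.42 (SE 0.08, limma adjusted p = 0.0124), which missed the threshold without mutant replicate 2 (adjusted p = 0.0794). The 4 probe sets of its homologue GLK2 had 0.15, -0.13, -0.14 and -0.10, and none passed. Among genes for phytochromes, the red light receptors, PHYC fell by 0.39 (SE 0.09, limma adjusted p = 0.0255) and PHYB rose by 0.40 (SE 0.10, limma adjusted p = 0.0282), while the 2 PHYA probe sets had -0.11 and -0.07. Dropping any 1 mutant array, or replicate 1 or 2 of wild type, ended the call of PHYC (adjusted p of 0.0584 to 0.109). Dropping any 1 mutant array, or replicate 1 of wild type, ended that of PHYB (adjusted p of 0.0664 to 0.104).

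Of 8 probe sets for regulators of leaf senescence, 2 fell and none rose, where 8.16% of probe sets naming 1 gene fell and 9.96% rose. Both belong to 1 gene, OsDOS, a zinc finger gene known in rice to delay leaf senescence. One had signals of 263, 311 and 330 in the mutant, against 722, 601 and 441 in wild type, and the other had 490, 583 and 624 in the mutant, against 1190, 949 and 1005 in wild type. Neither pair of groups overlapped, and the log2 differences were -0.88 (SE 0.16, limma adjusted p = 0.00691) and -0.85 (SE 0.12, limma adjusted p = 0.00201). Both passed in each of 14 alternative settings. NAC2, a NAC factor gene known to promote senescence in rice, had 0.10 (SE 0.18, limma adjusted p = 0.827). In the ethylene pathway, the probe sets of the factor genes named EIL1 had -0.25, 0.01 and -0.36 and those of the receptor gene ETR2 had 0.00 and, in a dim one, 0.45, and none passed with all arrays and no block. The dim ETR2 probe set (limma adjusted p = 0.058) passed as higher with a replicate block and on dropping mutant replicate 1. The summed signal of the 8 probe sets was 5168 to 5604 in the mutant and 6675 to 7109 in wild type. Without OsDOS it was 4415 to 4709 in the mutant and 5174 to 5229 in wild type. Most of the sum without OsDOS came from 1 EIL1 probe set (mean 3257 in the mutant, 3869 in wild type). That probe set did not pass (limma adjusted p = 0.0761). Its groups did not overlap, as in 18.8% of probe sets naming 1 gene with the mutant lower, and its unadjusted 95% interval (-0.42 to -0.07) did not include 0. Because the sums mostly follow 1 probe set, neither a general fall of these regulators nor its absence is read from them.

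Of 4 genes known from senescing rice leaves, 1 rose and 1 fell, where 9.96% of probe sets naming 1 gene rose and 8.16% fell. GS1;1, a cytosolic glutamine synthetase gene, rose by 0.36 (SE 0.10, limma adjusted p = 0.047), with 2284 to 2361 in the mutant, against 1636 to 2081 in wild type. It passed in 7 of 14 alternative settings and missed the threshold on dropping any 1 mutant array, or replicate 1 or 2 of wild type, with adjusted p up to 0.147. PPDKB, a pyruvate orthophosphate dikinase gene, had signals of 664, 579 and 538 in the mutant, against 988, 982 and 982 in wild type. Its log2 difference was -0.70 (SE 0.10, limma adjusted p = 0.00204), and it passed in all 14 settings. SAG12, a cysteine protease gene, was below the array median on every array and had -0.01, and OSL2 had 0.14.

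**Figure D4:**
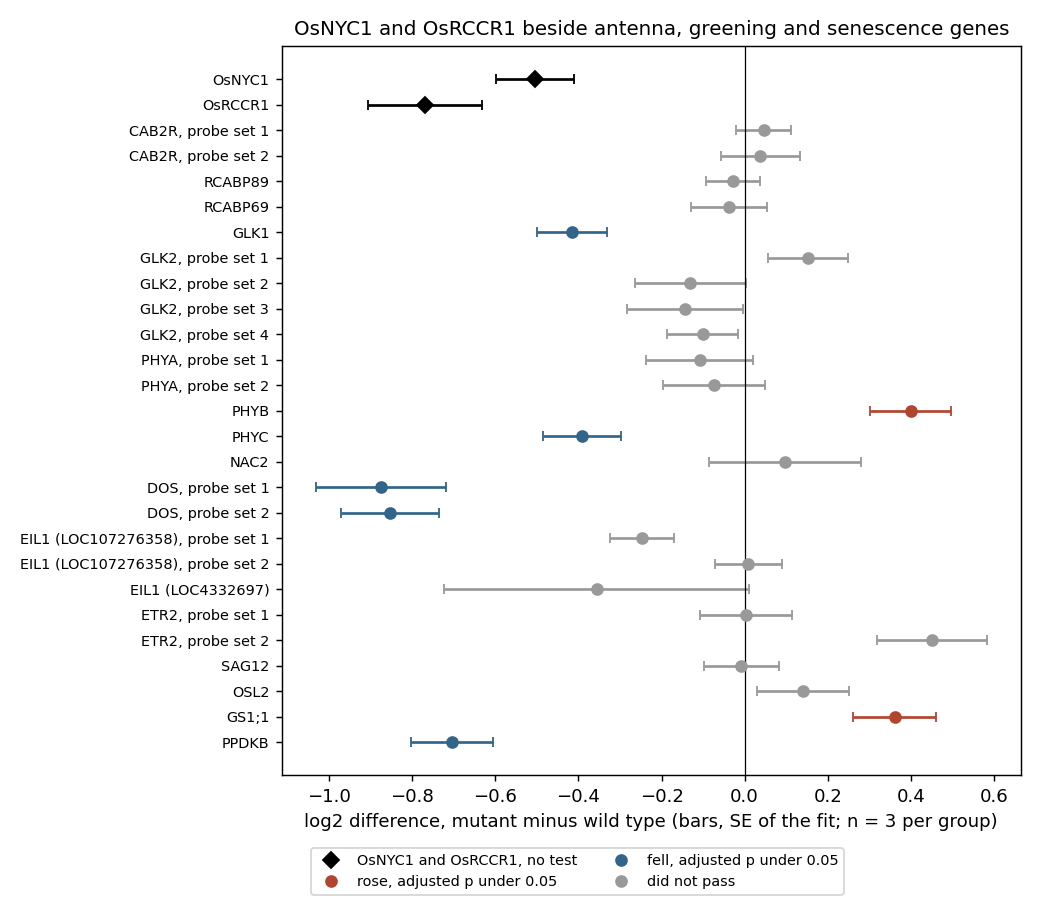
Log2 difference (mutant minus wild type, bars SE of the fit, n = 3 arrays per group) of OsNYC1 and OsRCCR1 (black diamonds, not tested) above probe sets of antenna proteins, greening regulators, senescence regulators and senescence-associated genes; red passed as higher, blue passed as lower, grey did not pass. Both OsDOS probe sets, PPDKB, GLK1 and PHYC are blue, and the antenna probe sets lie near 0.

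Markers of tissue make-up were read beside these results. Among 10 probe sets for leaf photosynthesis genes (RBCS, CAB2R and RCA), 1 fell, a probe set of RCA (-0.45, limma adjusted p = 0.0208; lost, at 0.052 to 0.0947, on dropping replicate 2 or 3 of either genotype). That share is near the 8.16% that fell among probe sets naming 1 gene. Of the other RCA probe sets, 1 passed as lower in 4 of 14 alternative settings and 1 in 2 of them. Their log2 differences were -0.21, -0.29 and -0.29. Mutant arrays lay wholly below wild-type arrays in 4 of the 10 probe sets, all of RCA, where 18.8% of probe sets naming 1 gene did. The summed signal of the 10 was 65517 to 75793 in the mutant and 75161 to 79572 in wild type. Without RCA it was 40963 to 45123 in the mutant and 42269 to 44562 in wild type. Most of that sum came from the CAB2R probe sets and 1 RBCS probe set, whose 16088 was the highest signal on wild-type replicate 1. Whether signals this bright still follow RNA amount was not tested, so equal amounts of green tissue are not read from the sum. Among 5 probe sets for genes known from roots, 1 fell, NAAT1, a gene of iron uptake (-1.24, limma adjusted p = 0.00065), where 8.16% of probe sets naming 1 gene fell. The summed signal of these 5 was 466 to 589 in the mutant and 769 to 810 in wild type. Without NAAT1 it was 387 to 456 in the mutant and 469 to 498 in wild type. Most of the sum without NAAT1 came from LSI1 (mean 306 in the mutant, 342 in wild type). LSI1 had overlapping groups and did not pass (limma adjusted p = 0.435). None of these markers was at 0, and LSI2 and IRT1 were below the array median on every array. The part of tissue make-up in the lower OsNYC1 and OsRCCR1 signals was not tested. Median signals of the 6 arrays lay between 67.6 and 71.1, and the median log2 difference over all probe sets was 0.00.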

How the data were processed

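The authors deposited 1 linear intensity per probe set and array, computed with MAS5 per the submitters' processing notes. The MAS5 version and scaling target were not stated. The precision is limited by the number of arrays, 3 per group. After 123 control probe sets were left out, 57258 were fitted as log2(signal + 32), mutant against wild type, with limma 3.58.1 in R 4.3.3 (moderated test with the prior variance trended on intensity, 2-sided, Benjamini-Hochberg over all of them, threshold 0.05). The fit was tested on simulated data with independent noise for each probe set and array, which does not cover shifts shared across the probe sets of an array. Probe sets were matched to genes through the platform annotation and the rice gene table (assembly ASM3414082v1), which gave 22436 probe sets with 1 gene, 95 with several and 34727 with none. Lists were matched by exact symbol or synonym, and 5 matches to unrelated genes of the same name were dropped. URO-D1, URO-D2, CPX, RCABP89 and RCABP69 were added once the gene table had been read. The named genes are all list genes with a probe set past the threshold, all genes of synthesis and breakdown, and the 5 profiles nearest to OsNYC1 and to OsRCCR1; others were named for contrast. The members and lists were chosen with earlier results of these data known. Same-numbered arrays did not deviate together (correlations 0.01, -0.17 and 0.09 across probe sets), so replicate numbers were not taken as pairs. The submitters' SAM analysis was not repeated. Tables were joined with pandas 2.3.3 in Python 3.11.15 and figures drawn with matplotlib 3.10.9.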

Additional observations from a re-analysis of the deposited data

How the results depend on the processing

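Across 14 alternatives (a smaller and a larger offset, quantile normalization, median subtraction, a filter that removes the dimmest 40% of probe sets, an untrended prior, array weights, a replicate block and each array left out in turn) the log2 difference of OsNYC1 stayed between -0.56 and -0.45 and that of OsRCCR1 between -0.90 and -0.62, each within 1 SD of the value given. The median of the synthesis probe sets lay between -0.12 and -0.06. With a replicate block the differences of OsNYC1 and OsRCCR1 were -0.50 and -0.77, as without it, the synthesis list again had 1 probe set higher, the calls of PHYB (adjusted p = 0.0565) and GS1;1 (0.0586) were lost, and the dim ETR2 probe set passed (0.0244), as it did on dropping mutant replicate 1 (0.0213). When single arrays were left out, the count of synthesis probe sets that rose lay between 0 and 1 and that of those that fell between 0 and 1; over all probe sets 1358 to 3511 rose and 916 to 2838 fell, against 3140 and 2532 with all arrays. GS1;1 also missed the threshold with the larger offset (adjusted p = 0.0503). What caused these changes was not tested. With 3 arrays per group, and 18 of 19 synthesis probe sets not passing, small changes of synthesis genes could not be resolved.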
